A study of Mus musculus with 15 samples.

Results

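Expression of the Lin28 genes and of other oncofetal genes for RNA-binding proteins and let-7 targets was read from 15 Affymetrix mouse arrays. The genes were chosen by name and were Lin28a, Lin28b, L1td1, Trim71, Hmga2, Igf2bp1, Igf2bp2 and Igf2bp3. Of these 8 genes, 7 had at least 1 probe set that named them alone, with 20 of the 45037 probe sets in all. Lin28a and Trim71 had 2 probe sets each, Lin28b and L1td1 had 1 each, Hmga2 and Igf2bp1 had 4 each, and Igf2bp3 had 6. Igf2bp2 is not analysed here.

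The arrays fell into 5 groups of 3. The mouse embryo fibroblasts (MEF) had the B6D2F1 genetic background and were the cells the iPS lines had been made from, according to the design text. CL11, a line of embryonic stem (ES) cells, had the B6D2F1 background too, as had 2 lines of induced pluripotent stem (iPS) cells, IP14D-1 and IP20D-3. The iPS line IP14D-101 had the C57x129S2 background and was the only one with it, a background the MEF arrays do not share, so its line and its background cannot be told apart. With the backgrounds as given, these MEF cannot be the cells that IP14D-101 was made from. Cultures of ES and iPS cells had been kept with LIF on fibroblast feeders treated with mitomycin C, in DMEM with serum or with a serum replacement, and the medium of each line is not stated. The reprogramming factors are not stated in the sources used here. Each line is a single line, so a difference between lines is one between these cultures and not between ES and iPS cells in general. The 3 samples of each group are described as biological replicates, and p-values measure only the spread between them. Values for the 4 lines are always given with CL11 first, then the iPS lines as IP14D-1, IP14D-101, IP20D-3.

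Signals are given as log2(signal + 16) after scaling of the arrays. Background was set at a log2 signal of 11.04, below which 95% of values from 39 olfactory receptor genes lay, a family of odorant receptors that these cells should not use. Each gene is read from its probe set with the highest mean, unless another is named. Levels of different genes are not compared, since probe sets differ in response. A change passed at an adjusted p under 0.05 (limma, Benjamini-Hochberg over 45037 probe sets in each comparison). All 10 pluripotency markers checked lay above background in every ES and iPS line, against 1 of 10 in MEF. All 11 fibroblast markers measured lay above background in MEF. RNA quality was read as actin signal at the 3' end over that at the 5' end, which ran from 1.14 to 1.17 in MEF, 1.19 to 1.22 in CL11, 1.32 to 1.39 in IP14D-1, 1.16 to 1.29 in IP14D-101 and 1.25 to 1.30 in IP20D-3.

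LIN28 proteins are RNA-binding proteins of embryonic cells that hold back the let-7 microRNAs. They bind the terminal loop of let-7 precursors, and LIN28A recruits a terminal uridylyltransferase, whose oligo(U) tail marks the precursor for decay by DIS3L2. Mature let-7 in turn represses Lin28, Hmga2, Igf2bp and Myc family mRNAs, so that embryonic cells tend to have much LIN28 and little let-7 and differentiated cells the reverse. L1TD1 is an RNA-binding protein of pluripotent cells derived from a LINE-1 element, and TRIM71 is an RNA-binding ubiquitin ligase of the early embryo that is itself a let-7 target. HMGA2 is a chromatin architectural protein found in embryonic mesenchyme, and the IGF2BP proteins bind and protect mRNAs. Most of these genes are silent in adult tissue and come back on in tumours, which is why they are called oncofetal.

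The shared feature of the let-7 family is the seed, bases 2 to 8 from the 5' end, through which a microRNA pairs with its targets. The mature sequences from RefSeq (GRCm38.p6) are shown because let-7 recognises its targets through this seed, which is in capitals.
let-7a-5p: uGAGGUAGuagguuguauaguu
let-7d-5p: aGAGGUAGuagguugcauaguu
let-7g-5p: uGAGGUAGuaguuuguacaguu
miR-98-5p: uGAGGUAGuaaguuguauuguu
let-7j: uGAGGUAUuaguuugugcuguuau
Of 11 mature names in the family, 10 had the seed GAGGUAG, and let-7j had GAGGUAU. The let-7 RNAs themselves are not analysed here.

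The let-7g precursor is shown as the kind of hairpin LIN28 binds. It lies at chr9:106178840-106178927 on the plus strand, and capitals mark the letters GGAG, the motif read by the zinc knuckles of LIN28.
let-7g hairpin: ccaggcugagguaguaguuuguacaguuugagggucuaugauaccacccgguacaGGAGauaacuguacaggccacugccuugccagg
GGAG occurred in 9 of 12 let-7 and miR-98 hairpins, or 75%, and in 447 of 1005 mouse hairpins of the same table, or 44.5%. The match is of letters only, on the hairpin strand.

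Promoter sequence is shown for 3 members that moved together and for Hmga2, which moved the other way. Each run is the 250 bases before the RefSeq start site on GRCm38.p6, 5' to 3' on the gene's strand. Capitals mark the only motif found among those searched, the GC box GGGCGG or its reverse complement CCGCCC.
Lin28a, chr4:134018817-134019066, minus strand: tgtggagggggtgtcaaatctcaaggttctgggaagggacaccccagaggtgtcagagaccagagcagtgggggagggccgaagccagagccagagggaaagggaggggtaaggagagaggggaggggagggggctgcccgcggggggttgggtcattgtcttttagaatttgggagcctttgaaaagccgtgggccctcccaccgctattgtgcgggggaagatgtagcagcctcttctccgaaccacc
L1td1, chr4:98726504-98726753, plus strand: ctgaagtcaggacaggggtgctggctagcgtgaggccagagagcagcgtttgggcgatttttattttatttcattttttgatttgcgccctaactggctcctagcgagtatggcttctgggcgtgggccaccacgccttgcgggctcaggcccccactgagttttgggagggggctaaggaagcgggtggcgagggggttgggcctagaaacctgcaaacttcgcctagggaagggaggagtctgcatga
Trim71, chr9:114564370-114564619, minus strand: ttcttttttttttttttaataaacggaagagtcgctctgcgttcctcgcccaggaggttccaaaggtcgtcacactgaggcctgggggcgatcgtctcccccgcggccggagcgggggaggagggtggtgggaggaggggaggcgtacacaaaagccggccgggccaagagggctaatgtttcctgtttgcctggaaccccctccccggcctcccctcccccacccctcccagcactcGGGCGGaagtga
Hmga2, chr10:120476470-120476719, minus strand: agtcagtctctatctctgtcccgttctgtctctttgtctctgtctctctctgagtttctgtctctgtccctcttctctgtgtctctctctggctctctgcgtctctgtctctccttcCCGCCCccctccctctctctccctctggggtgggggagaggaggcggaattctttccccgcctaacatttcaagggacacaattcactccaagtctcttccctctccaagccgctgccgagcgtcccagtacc
The motifs searched, on both strands, were the octamer ATGCAAAT, the SOX motif CATTGTT, the E-box CACGTG, the GC box and TATAAA. The GC box was found 1 time each in Trim71 and Hmga2, and 32.7% of 32851 mouse promoter windows of this length held it. The octamer was in 1.6%, the SOX motif in 3.29%, the E-box in 6.02% and TATAAA in 12.4% of those windows, and none was in these 4. The shares of G and C were 61.2% in Lin28a, 57.6% in L1td1, 62.8% in Trim71 and 56.4% in Hmga2, against a median of 52.4% over all windows.

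The question put first was how ES and iPS cells differed from fibroblasts. Lin28a, L1td1, Trim71 and Igf2bp1 were higher in all 4 lines than in MEF and Hmga2 was lower in all 4. Igf2bp3 was slightly higher in 3 lines, and Lin28b lay below background or close to it in every group. In CL11, 5 of 7 members were higher and 1 was lower, where 43.4% of all probe sets changed, 22.1% higher and 21.3% lower. In IP14D-1 the counts were again 5 and 1, with 42% of all probe sets changed, 23.3% higher and 18.7% lower. In IP14D-101 and IP20D-3, 6 members were higher and 1 was lower, with 45.7% of all probe sets changed in IP14D-101 (21.8% higher, 23.9% lower) and 43.8% in IP20D-3 (23.5% higher, 20.3% lower). The median change of the 7 members was 3.37, 3.70, 3.32 and 3.62 on the log2 scale for the 4 lines, against medians of −0.06, 0.11, −0.13 and 0.03 over all probe sets. With genes below background in MEF set at their bound, the medians were those of Igf2bp1, 3.37, 3.49, 3.31 and 3.49. Members are read at 1 probe set per gene, unlike the shares of all probe sets. With 1 probe set per gene, 9837, 9600, 10017 and 9842 of 18193 genes changed in the 4 lines. The 4 comparisons share the MEF arrays and are not independent of each other.

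**Figure D1:**
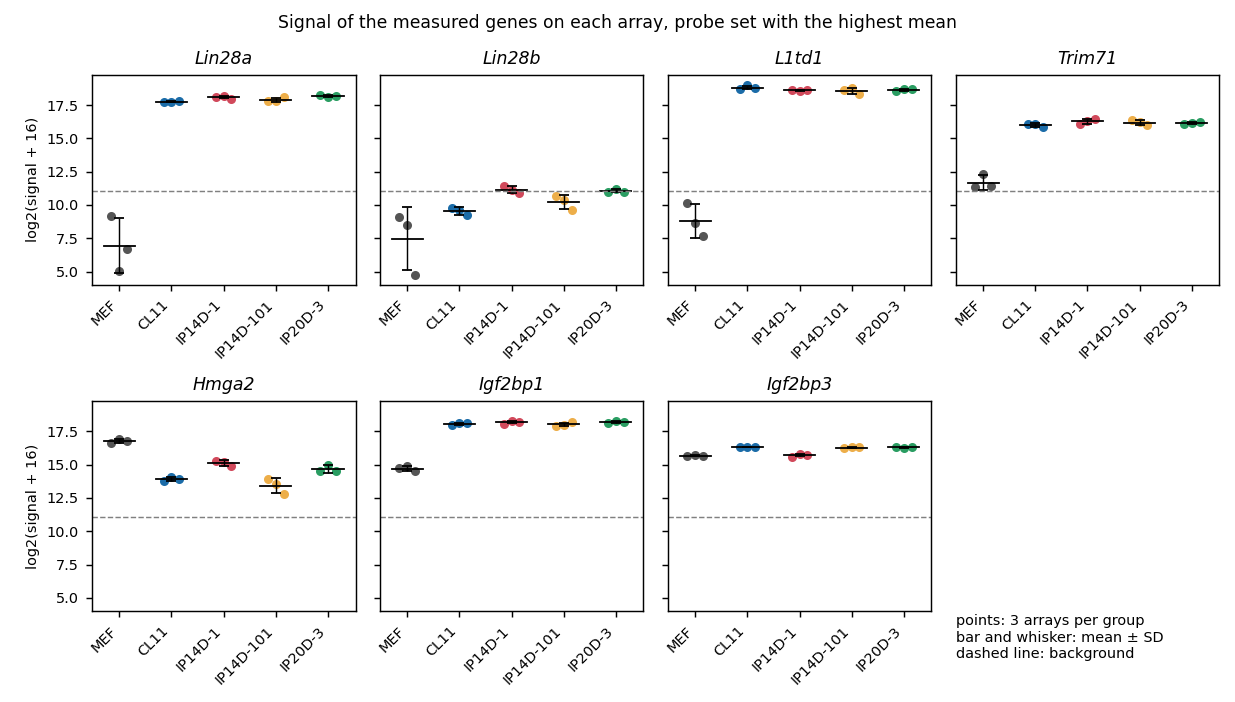
Log2(signal + 16) of the 7 measured genes on each of the 15 arrays, by group, with bars for the mean and the SD of 3 arrays and a dashed line at the background of 11.04. Lin28a and L1td1 lie below the line on every MEF array and above 17.7 on every ES and iPS array, while Hmga2 is highest in MEF and Lin28b lies below the line or close to it in all groups.

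Lin28a encodes the LIN28 protein long known from pluripotent cells and is one of the factors used to reprogram human fibroblasts. On the MEF arrays Lin28a read 9.14, 5.05 and 6.66, all below background. In CL11 it read 17.73, 17.74 and 17.84, and in IP14D-1 18.12, 18.18 and 17.998. In IP14D-101 it read 17.85, 17.80 and 18.08, and in IP20D-3 18.26, 18.12 and 18.17. The groups did not overlap, and every ES and iPS array lay far above every MEF array. Lin28a was at least 106-fold higher in CL11 than in MEF and 134, 117 and 142-fold in the iPS lines, where the MEF arrays were set to background (adjusted p = 8.2e-12, 6.15e-12, 6.5e-12 and 4.59e-12). The second Lin28a probe set, 1421749_at, was also below background on all MEF arrays, and it was at least 10.2-fold higher in CL11 and 16.5, 25.1 and 6.43-fold in the iPS lines. In bulk RNA, fewer cells of a type and less RNA per cell cannot be told apart.

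L1td1 lay below background on the MEF arrays, at 10.13, 8.62 and 7.66. It read 18.70, 18.98 and 18.78 in CL11, 18.65, 18.59 and 18.66 in IP14D-1, 18.64, 18.76 and 18.35 in IP14D-101, and 18.55, 18.71 and 18.68 in IP20D-3. All 12 ES and iPS arrays thus lay within 18.35 and 18.98, with no overlap with MEF. L1td1 was at least 220-fold higher in CL11 and 193, 187 and 195-fold in the iPS lines (adjusted p = 2.72e-14, 4.19e-14, 3.62e-14 and 3.18e-14).

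Trim71 was just above background in MEF, at 11.34, 12.30 and 11.42. It read 16.07, 16.10 and 15.86 in CL11, 16.08, 16.30 and 16.49 in IP14D-1, 16.35, 16.22 and 16.02 in IP14D-101, and 16.10, 16.18 and 16.25 in IP20D-3. The MEF arrays stood apart from all others. On the log2 scale Trim71 rose by 4.32 in CL11 and by 4.61, 4.51 and 4.49 in the iPS lines (standard error 0.18 each, n = 3 arrays per group, limma adjusted p of at most 3.48e-13). The second Trim71 probe set, 1456673_at, lay below background on all MEF arrays and was at least 28.0-fold higher in CL11 and 24.6, 28.6 and 27.8-fold in the iPS lines.

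Lin28b, the paralog of Lin28a, had 1 probe set and little signal. It read 9.13, 8.50 and 4.73 in MEF and 9.76, 9.64 and 9.23 in CL11, all below background. In IP14D-1 it read 11.42, 11.13 and 10.92, in IP14D-101 10.69, 10.39 and 9.64, and in IP20D-3 11.00, 11.22 and 10.99. Only 2 IP14D-1 arrays and 1 IP20D-3 array were above background. Against MEF, Lin28b passed in IP14D-1 (adjusted p = 0.00115), IP20D-3 (adjusted p = 0.00134) and IP14D-101 (adjusted p = 0.00982), and it missed the threshold in CL11 (a fitted 2.09 with both groups below background, 95% interval 0.34 to 3.85, adjusted p = 0.0508). That difference passed without MEF replicate 1 (2.93, adjusted p = 0.00891) or MEF replicate 2 (2.62, adjusted p = 0.0283), and under 5 other settings (adjusted p = 0.0306 to 0.0392). The measured bounds were small, at least 1.09-fold in IP14D-1 and 1.02-fold in IP20D-3, and no fold can be given for IP14D-101, where both groups lay below background. The call in IP14D-101 was lost when only its arrays and those of MEF were fitted (adjusted p = 0.072).

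Igf2bp1 encodes the zipcode-binding protein that binds Actb and Myc mRNA. In MEF it was well above background at 14.75, 14.88 and 14.50. It read 17.998, 18.13 and 18.11 in CL11, 18.10, 18.27 and 18.23 in IP14D-1, 17.91, 17.99 and 18.18 in IP14D-101, and 18.15, 18.26 and 18.18 in IP20D-3. MEF had the gene, and the lines had 1030%, 1120%, 993% and 1120% of its mean signal. The rises were 3.37, 3.49, 3.31 and 3.49 on the log2 scale (standard error 0.09, adjusted p of at most 8.42e-16). All 4 Igf2bp1 probe sets were higher in every line than in MEF, from 1.45 for 1459825_x_at in IP14D-101 to 3.58 for 1455223_at in IP14D-1.

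Igf2bp3 differed least from MEF, although both groups were far above background. It read 15.67, 15.71 and 15.65 in MEF and 16.30, 16.34 and 16.32 in CL11. In IP14D-1 it read 15.62, 15.77 and 15.72, in IP14D-101 16.27, 16.29 and 16.30, and in IP20D-3 16.34, 16.27 and 16.34. The IP14D-1 arrays overlapped with those of MEF, and the other 3 lines lay above both. Those rises were 0.64, 0.61 and 0.64 (standard error 0.07, adjusted p = 1.52e-07, 2.94e-07 and 1.57e-07). In IP14D-1 the change was 0.03 (95% interval −0.11 to 0.17, adjusted p = 0.803). Over all 6 Igf2bp3 probe sets, the one read above included, the picture was mixed. In CL11 2 were higher and none lower. For IP14D-101 3 were higher and for IP20D-3 4, again with none lower, whereas in IP14D-1 1 was higher and 2 were lower. On values used as deposited, without scaling, the 3 rises shrank to 0.22, 0.04 and 0.00 and none passed (adjusted p of at least 0.108). Median scaling and quantile normalization kept all 3.

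Hmga2 was the member that was lower in ES and iPS cells. It read 16.65, 16.94 and 16.76 in MEF. In CL11 it read 13.76, 14.05 and 13.89, in IP14D-1 15.27, 15.20 and 14.91, in IP14D-101 13.91, 13.59 and 12.79, and in IP20D-3 14.50, 14.99 and 14.54. No array of a line reached the MEF range, and all stayed above background. Its change on the log2 scale was −2.88 in CL11 and −1.66, −3.35 and −2.10 in the iPS lines (standard error 0.21, adjusted p = 6.45e-10, 1.51e-06, 6.95e-11 and 5.59e-08). The signal left was 13.6%, 31.8%, 10.2% and 23.4% of the MEF mean. All 4 Hmga2 probe sets were lower in every line, and the 3 brighter ones changed by −3.79 to −2.88 in CL11 and by −2.43 to −1.66, −4.82 to −3.35 and −3.07 to −2.10 in the iPS lines. The dimmest, 1446196_at, was below background on all ES and iPS arrays and at least 3.63-fold lower in each line.

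**Figure D2:**
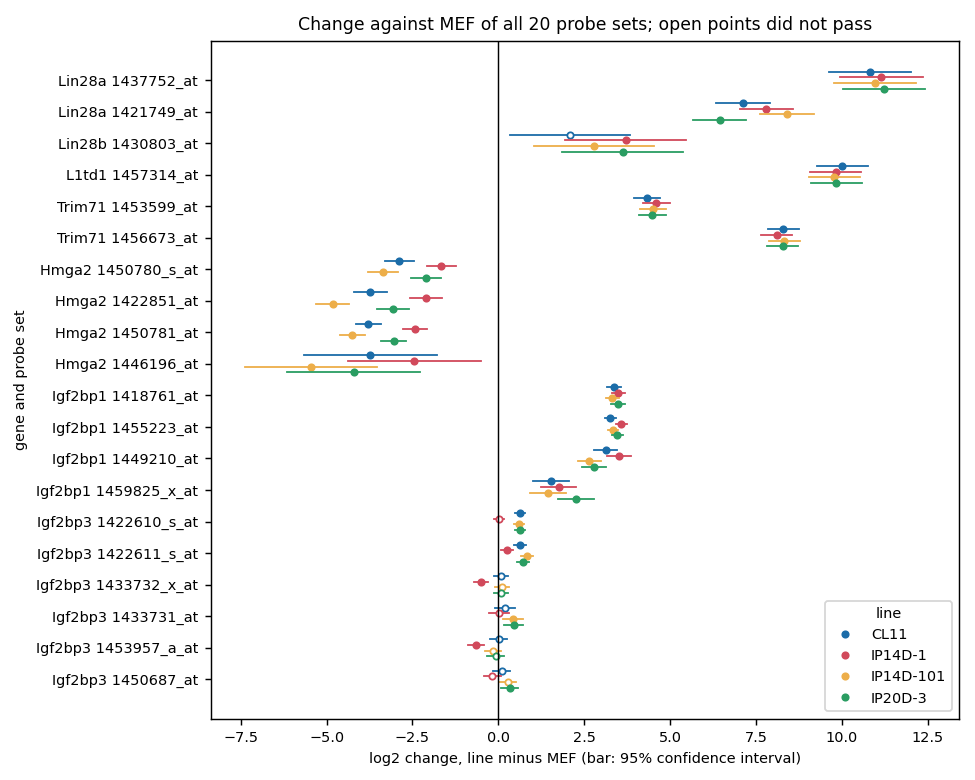
Log2 change against MEF of each of the 20 probe sets, by line, with 95% confidence intervals from the fit on all 15 arrays; open points did not pass. All 4 Hmga2 probe sets lie left of 0 in every line, all probe sets of Lin28a, Trim71 and Igf2bp1 lie right of it, and those of Igf2bp3 lie between −0.64 and 0.85.

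The next question was whether the ES and iPS lines differed from each other. Lin28a, L1td1, Trim71 and Igf2bp1 did not pass in any of the 6 comparisons at their highest probe set, and Hmga2 and Igf2bp3 differed in several. IP14D-1 against CL11 had 1 member higher and 1 lower, with 17.2% of all probe sets changed (9.42% higher, 7.78% lower). IP14D-101 against CL11 had 0 of 7 by limma and 1, Hmga2, below 0.05 without adjustment, with 7.18% of all probe sets changed (3.31% higher, 3.86% lower). Without IP14D-101 replicate 1 that count was 1. IP20D-3 against CL11 had 1 higher, with 14.5% of all probe sets changed (7.61% higher, 6.87% lower). IP14D-101 against IP14D-1 had 1 higher and 1 lower, with 23.4% changed (9.51% higher, 13.9% lower). IP20D-3 against IP14D-1 had 1 higher, with 5.48% changed (2.74% each way), and IP20D-3 against IP14D-101 had 1 higher, with 18.2% changed (10.5% higher, 7.67% lower). With 1 probe set per gene, 4412, 2092, 3984, 5085, 1672 and 4274 of 18193 genes changed in these comparisons, in the order given. Counts of 0 to 2 among 7 members show nothing particular to the group.

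Hmga2 was the member that varied most among the lines. From highest to lowest the order was IP14D-1 at 15.12 ± 0.19, IP20D-3 at 14.68 ± 0.27, CL11 at 13.90 ± 0.15 and IP14D-101 at 13.43 ± 0.58 (log2, SD, n = 3). The 2 upper lines did not differ past the threshold (−0.45, 95% interval −0.88 to −0.02, adjusted p = 0.265), and neither did the 2 lower ones (−0.47, 95% interval −0.90 to −0.04, adjusted p = 0.2). Between these pairs the differences passed. IP14D-1 was higher than CL11 by 1.22 (standard error 0.21, adjusted p = 0.000349), and IP14D-101 was lower than IP14D-1 (−1.70, adjusted p = 1.06e-05). IP20D-3 was higher than IP14D-101 by 1.25 (adjusted p = 0.000298) and than CL11 by 0.78 (adjusted p = 0.0142). The last call was lost without CL11 replicate 1 (0.70, adjusted p = 0.0609), without IP20D-3 replicate 2 (0.62, adjusted p = 0.0827), without scaling (0.56, adjusted p = 0.152) and without the variance trend (adjusted p = 0.0777).

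The same order of lines was seen at 1422851_at and 1450781_at, whereas 1446196_at lay below background in all lines. The probe set 1422851_at read 14.80 ± 0.20 in IP14D-1, 13.84 ± 0.03 in IP20D-3, 13.18 ± 0.13 in CL11 and 12.08 ± 0.69 in IP14D-101. There IP14D-1 was also higher than IP20D-3 (a change of −0.96 from IP14D-1 to IP20D-3, adjusted p = 0.016), and IP14D-101 was lower than CL11 (−1.10, adjusted p = 0.00503). The first of these calls was lost without the variance trend (adjusted p = 0.102), without IP14D-1 replicate 2 (−0.86, adjusted p = 0.0842) or 3 (adjusted p = 0.0512) and without IP20D-3 replicate 1 (adjusted p = 0.0581), and the second in a fit on only those arrays (adjusted p = 0.0709). The probe set 1450781_at read 13.60, 12.98, 12.24 and 11.78 in the same order. Of the 4 Hmga2 probe sets, 3 were higher in IP14D-1 than in CL11, and 3 were higher in IP20D-3 than in IP14D-101. All 4 were lower in IP14D-101 than in IP14D-1 (1446196_at below background in both). In IP20D-3, 2 were higher than in CL11 and 2 were lower than in IP14D-1, and in IP14D-101 1 was lower than in CL11. The call at 1450781_at between IP20D-3 and IP14D-1 (−0.62) was lost under median scaling, without the variance trend and without any single array of either line.

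Hmga2 is a gene of fibroblasts, and feeder fibroblasts were in the cultures, so fibroblast markers are given beside it. The summed signal of the 11 measured markers was 2.62% to 2.81% of the MEF mean in CL11. The iPS lines had 3.41% to 3.64%, 2.94% to 3.33% and 3.70% to 4.57%. Fn1, the fibronectin gene, was at 17.40 to 18.03 on average in the lines and made up 92% to 93.6% of that sum in CL11. In IP14D-1 its share was 79.3% to 80.7%, in IP14D-101 93.8% to 94.5% and in IP20D-3 93.8% to 95.3%, beside 10.6% to 11.8% in MEF. The sum of the other 10 markers, computed after the values were seen, was 0.198% to 0.242% of the MEF mean in CL11, 0.78% to 0.797% in IP14D-1, 0.201% to 0.231% in IP14D-101 and 0.24% to 0.283% in IP20D-3. Without Fn1 every IP14D-1 array lay above every array of the other lines, and IP14D-1 was also the line with the most Hmga2. None of the 11 was at 0 in any line, and 3, 8, 3 and 4 of them lay above background. In IP14D-1 against CL11, 6 of 11 were higher and none was lower, among them Col1a1 (at least 2.37-fold), Postn (at least 1.38-fold), Col3a1 (at least 3.22-fold) and Lox (at least 5.88-fold), which lay below background in CL11. Against MEF these matrix genes were still lower in IP14D-1, with changes of −7.46 for Col1a1, −8.34 for Postn, −7.10 for Col3a1 and −5.81 for Lox, beside −1.66 for Hmga2. In IP20D-3 against CL11, 1 of 11 was higher, Fn1, which lay above background in every line. Another 1, Pdgfrb, was lower, with both lines below background. The 8 primitive endoderm markers were all lower in IP14D-1 and in IP20D-3 than in CL11, and none passed in IP14D-101 against CL11. In IP14D-101 against IP14D-1, 6 of 11 fibroblast markers were lower and none was higher, among them Lox (at least 6.08-fold), Col5a2 (at least 3.66-fold) and Col1a2 (a change of −1.36), and all 8 primitive endoderm markers were higher. In IP20D-3 against IP14D-1, 6 of 11 fibroblast markers were lower and Fn1 was higher, with 1 endoderm marker higher and 1 lower. In IP20D-3 against IP14D-101, 3 of 11 fibroblast markers were higher and 2 lower. The 2 lower ones, Col1a1 and Pdgfrb, lay below background in both lines. In the same comparison 7 of 8 endoderm markers were lower. The part of other cell types in the Hmga2 differences was not tested.

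**Figure D3:**
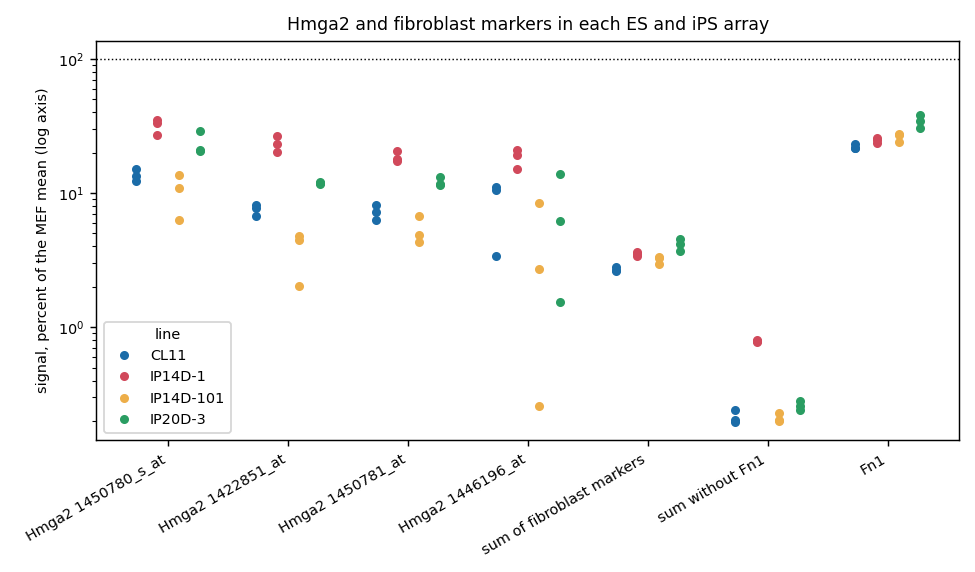
Signal on each ES and iPS array as a percentage of the MEF mean, on a log axis, for the 4 Hmga2 probe sets for the sum of 11 fibroblast markers, for 10 of these without Fn1 and for Fn1; the dotted line is the MEF mean. Hmga2 at 1450780_s_at lies between 6.26% and 35% and the marker sum, most of it Fn1, between 2.62% and 4.57%; without Fn1 the markers lie between 0.198% and 0.797%, highest in IP14D-1, and at 1446196_at all ES and iPS arrays are below background.

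Igf2bp3 set IP14D-1 apart from the other lines. It was lower in IP14D-1 than in CL11 (−0.61, standard error 0.07, adjusted p = 4.43e-06), and higher in IP14D-101 and in IP20D-3 than in IP14D-1 (0.58 and 0.61, adjusted p = 6.42e-06 and 1.54e-05). The other lines lay at 16.32, 16.29 and 16.32 and did not differ past the threshold, with 95% intervals of −0.17 to 0.11 for IP14D-101 against CL11, −0.14 to 0.14 for IP20D-3 against CL11 and −0.11 to 0.17 for IP20D-3 against IP14D-101. Of the 6 Igf2bp3 probe sets, 4 were lower in IP14D-1 than in CL11, 6 were higher in IP14D-101 than in IP14D-1, and 5 were higher in IP20D-3 than in IP14D-1. On unscaled values the 3 differences at the highest probe set were −0.29, 0.10 and 0.07 and none passed (adjusted p = 0.0698, 0.504 and 0.68). There the median change of all probe sets was itself 0.44, −0.64 and −0.59 in these comparisons. The IP14D-1 arrays also had the highest actin 3' to 5' ratios, and their trimmed mean signals before scaling, 15315.8 to 17997.8, were above those of the other ES and iPS arrays, 11141.8 to 14016.5. The part of RNA quality and array brightness in the Igf2bp3 differences was not tested.

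The spread in the fit on all 15 arrays was wide for Lin28a, Lin28b and L1td1, whose MEF values below background scatter. A fit on the 12 ES and iPS arrays alone, chosen after the values were seen, gave tighter intervals. There Lin28a was higher in IP14D-1 than in CL11 (0.33, 95% interval 0.16 to 0.50, adjusted p = 0.00982), in IP20D-3 than in CL11 (0.41, 95% interval 0.24 to 0.59, adjusted p = 0.00222) and in IP20D-3 than in IP14D-101 (0.27, adjusted p = 0.0289). Lin28b was higher than in CL11 in IP14D-1 (1.61, adjusted p = 0.0242) and in IP20D-3 (1.53, adjusted p = 0.0364), at levels near or below background. In that fit 17.2%, 7.29% and 14.6% of all probe sets changed in the iPS lines against CL11. It was 23.5% for IP14D-101 against IP14D-1, 5.5% for IP20D-3 against IP14D-1, and 18.1% in IP20D-3 against IP14D-101. L1td1, Trim71 and Igf2bp1 passed in no comparison of that fit at their highest probe set.

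The 2 Lin28a probe sets ordered the lines differently. At 1437752_at the order was IP20D-3, IP14D-1, IP14D-101 and CL11, at 18.18, 18.10, 17.91 and 17.77. At 1421749_at it was IP14D-101 at 15.69 ± 0.25, IP14D-1 at 15.08 ± 0.58, CL11 at 14.39 ± 0.13 and IP20D-3 at 13.72 ± 0.43. The line with most signal at the first probe set had least at the second. At 1421749_at IP20D-3 was lower than IP14D-101 (−1.97, standard error 0.37, adjusted p = 0.001) and than IP14D-1 (−1.36, adjusted p = 0.0382), and IP14D-101 was higher than CL11 (1.29, adjusted p = 0.041). The call against CL11 was lost when any 1 of the 6 arrays compared was left out, and the call against IP14D-1 was lost without IP14D-1 replicate 1 or 2 or IP20D-3 replicate 1 or 2 (−1.32 to −1.18). Both were also lost without the variance trend and under quantile normalization. In the fit on the ES and iPS arrays alone, each of these differences at 1421749_at passed. There IP20D-3 was lower than IP14D-101 (adjusted p = 2.61e-05) and than IP14D-1 (adjusted p = 0.00214). IP14D-101 was higher than CL11 in that fit (adjusted p = 0.00253). The remaining differences at 1421749_at did not pass in it, among them IP20D-3 against CL11 (−0.67, adjusted p = 0.0699). Because the probe sets disagree, no order of the lines in Lin28a can be read from these arrays.

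**Figure D4:**
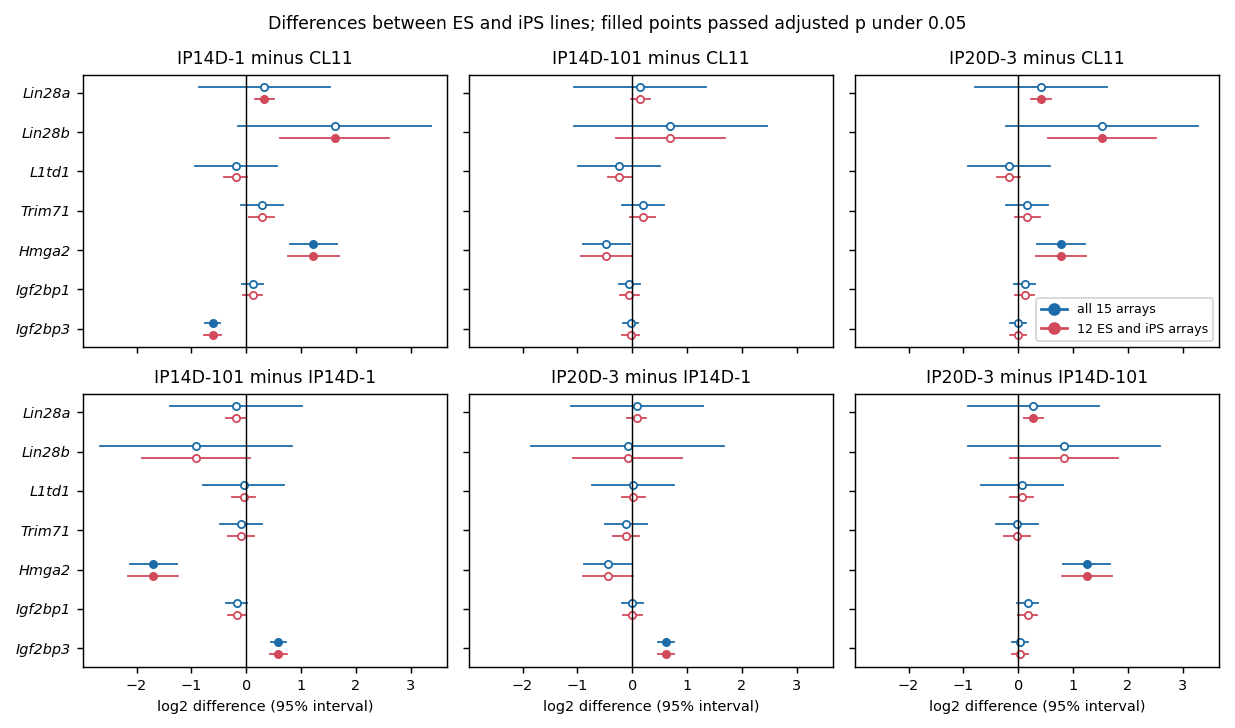
Log2 differences between lines at the highest probe set of the 7 genes, with 95% confidence intervals, from the fit on all 15 arrays and from the fit on the 12 ES and iPS arrays; filled points passed. Hmga2 and Igf2bp3 have filled points in both fits, and the Lin28a and Lin28b intervals are wide in the first fit and narrower in the second.

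Igf2bp1 at its highest probe set stayed within 18.03 and 18.20 on average in the 4 lines, and no difference passed. Its probe set 1449210_at was lower in IP14D-101 and IP20D-3 than in IP14D-1 (−0.86 and −0.73, adjusted p = 0.000722 and 0.0118), and neither passed under median scaling (−0.50 and −0.61). The difference of IP20D-3 also missed the threshold without the variance trend (adjusted p = 0.0934), without IP14D-1 replicate 3 (−0.62, adjusted p = 0.0691) and without IP20D-3 replicate 1 (−0.69, adjusted p = 0.0538). At 1459825_x_at IP20D-3 lay above IP14D-1 (0.51), which did not pass, and was higher than IP14D-101 (0.81). That call was lost without scaling, under median scaling and without the variance trend. It was also lost without IP14D-101 replicate 2 or 3 and without IP20D-3 replicate 1, 2 or 3. The probe set 1455223_at was higher in IP14D-1 than in CL11 (0.31) and lower in IP14D-101 than in IP14D-1 (−0.24). Both calls were lost under median scaling (0.07 and 0.13) and without the variance trend. The call for IP14D-101 was also lost in a fit on only the arrays compared. It was lost too without IP14D-1 replicate 1 or 3 or IP14D-101 replicate 1 or 2. L1td1 differed by −0.19 between IP14D-1 and CL11 (95% interval −0.93 to 0.55) and Trim71 by 0.28 (95% interval −0.10 to 0.66), which did not pass.

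The genes that make and destroy let-7 were counted next. Of 19 genes for microRNA processing and let-7 turnover, 12 rose and 2 fell in CL11 against MEF. In the iPS lines 13 rose in each, and 3, 3 and 2 fell. Of all probe sets, 22.1%, 23.3%, 21.8% and 23.5% rose and 21.3%, 18.7%, 23.9% and 20.3% fell. The median change of the 19 genes was 0.58, 0.80, 0.70 and 0.81, against −0.06, 0.11, −0.13 and 0.03 over all probe sets. Without scaling the counts of rises were 9, 12, 8 and 7 and those of falls 5, 3, 7 and 5. Drosha, the nuclear enzyme that cuts primary microRNAs, rose by 1.72, 1.95, 1.75 and 1.91 (standard error 0.11), and Tarbp2, a partner of Dicer, by 1.71, 1.52, 1.64 and 1.43 (standard error 0.12). Trim25, an activator of the uridylation of let-7 precursors, rose by 1.51, 0.99, 1.64 and 1.29 (standard error 0.08). Msi2, an RNA-binding protein, rose by 1.11, 1.86, 0.70 and 1.71 (standard error 0.21), and without scaling its rise in IP14D-101 did not pass (0.13, adjusted p = 0.664). The uridylyltransferases that work with LIN28A split: Tut4 rose by 0.42, 0.67, 0.41 and 0.64 and Tut7 changed by −0.70, −0.69, −0.72 and −0.84, past the threshold in each line (both named after their values were seen). The Tut4 rises did not pass without scaling except for IP14D-1 (0.006, −0.164 and 0.006).

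Among the lines, 3 of the 19 genes were higher and 1 lower in IP14D-1 than in CL11. The counts were 3 and 2 in IP14D-101 and 3 and 0 in IP20D-3. Of all probe sets, 17.2%, 7.18% and 14.5% changed in these comparisons. Hnrnpa1, which binds the primary let-7a transcript, was lower in IP14D-101 than in CL11 (−0.69), higher in IP14D-1 and IP20D-3 than in CL11 (0.60 and 0.51, standard error 0.10), and higher in IP20D-3 than in IP14D-101 (1.20). Its difference between IP20D-3 and CL11 did not pass without scaling (0.29, adjusted p = 0.277). Msi2 was lower in IP14D-101 than in IP14D-1 (−1.15) and Msi1 was higher in IP14D-101 than in CL11 (1.10, adjusted p = 0.00026). Msi2 was also higher in IP14D-1 than in CL11 (0.75), though not under median scaling (0.50). Msi1 was also higher in IP20D-3 than in CL11 (0.64), though not without scaling (0.42) or under median scaling (0.51). Dis3l2, the exonuclease that degrades uridylated let-7 precursors, was lower in IP14D-101 than in CL11 (−0.75, adjusted p = 0.0439) and than in IP14D-1 (−0.73, adjusted p = 0.019), and higher in IP20D-3 than in IP14D-101 (0.68, adjusted p = 0.0357). None of these Dis3l2 differences passed under median scaling (−0.63, −0.37 and 0.43) or quantile normalization (−0.61, −0.45 and 0.45).

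The let-7 targets did not move one way. Of 25 genes listed, 21 were measured, and 8 rose and 6 fell in CL11 against MEF. In the iPS lines 8, 8 and 7 rose and 5, 7 and 9 fell. Of all probe sets, 22.1%, 23.3%, 21.8% and 23.5% rose and 21.3%, 18.7%, 23.9% and 20.3% fell. The median changes of the targets were −0.15, −0.13, 0.04 and 0.03, beside −0.06, 0.11, −0.13 and 0.03 over all probe sets. With genes at their bound and 2 genes below background in both groups left out, the median for IP14D-101 was −0.30. Without scaling 6, 8, 6 and 6 rose and 10, 5, 11 and 10 fell. Mycn, a Myc family gene, was below background in MEF and at least 96.9-fold higher in CL11 and 143, 139 and 129-fold in the iPS lines. Arid3b, a DNA-binding protein gene, was at least 16.9-fold higher in CL11 and 15.8, 17.8 and 15.0-fold in the iPS lines, and Nr6a1, an orphan nuclear receptor gene, was at least 14.4-fold higher in CL11 and 20.9, 16.4 and 25.9-fold in the iPS lines. Thbs1, a matrix glycoprotein gene of fibroblasts, changed by −7.93, −5.59, −7.28 and −7.22 (standard error 0.14).

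Between the lines, 8 of the 21 targets were higher and 3 lower in IP14D-1 than in CL11, and 7 were higher and 4 lower in IP20D-3 than in CL11. In IP14D-101 against CL11, 2 were higher and 0 lower. Of all probe sets, 9.42% were higher and 7.78% lower in IP14D-1, and 7.61% and 6.87% in IP20D-3. These shares were 3.31% and 3.86% in IP14D-101. Without scaling the counts of targets were 10 and 1 for IP14D-1 and 2 and 5 for IP20D-3, and under median scaling 5 and 3 and 4 and 4. Thbs1 was higher in IP14D-1 than in CL11 by 2.34 and in IP20D-3 by 0.71. Cdk6, a cell cycle kinase gene, was higher by 1.45 and 0.69, and Tgfbr1, a TGF-beta receptor gene, by 1.04 and 0.73. Without scaling, the Thbs1 and Cdk6 differences of IP20D-3 did not pass (0.49 and 0.47, adjusted p = 0.0693 and 0.113). Thbs1 was also higher in IP14D-101 than in CL11 (0.65), though not without scaling (0.49, adjusted p = 0.1055). Irs2, an insulin signalling adaptor gene, was at least 2.36-fold higher in IP14D-1 than in CL11 (adjusted p = 0.00535). The 6 fibroblast markers that were higher in IP14D-1 moved in the same direction as these genes there, and their part was not tested.

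**Figure D5:**
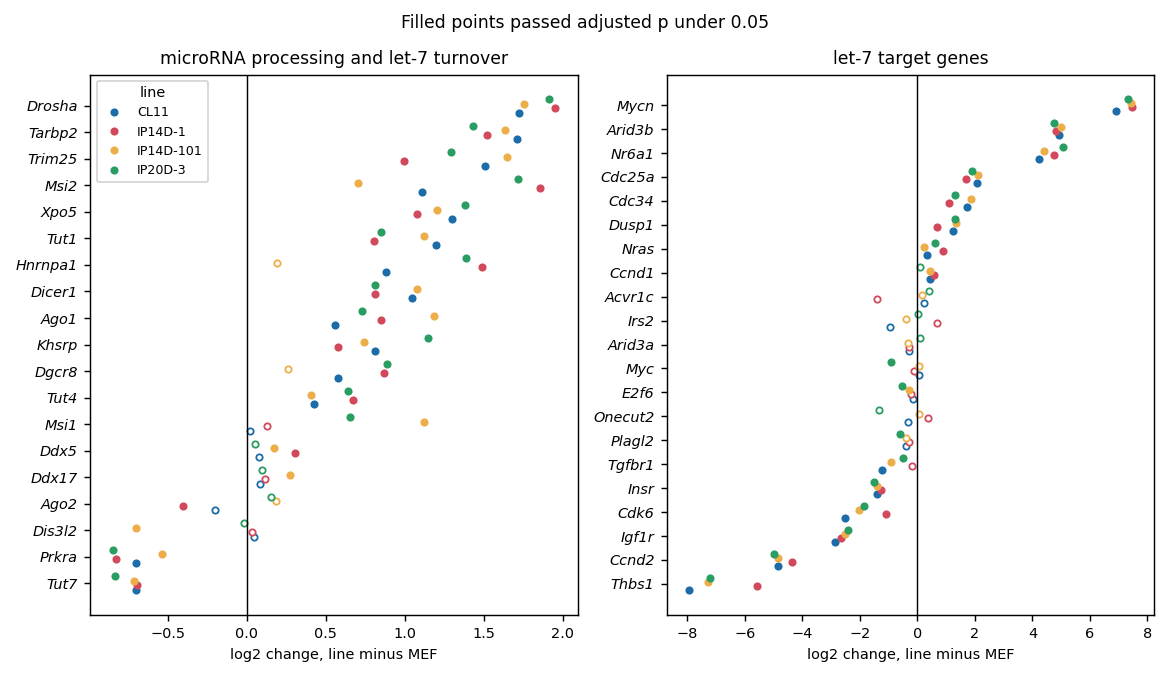
Log2 change against MEF in each line for the 19 genes of microRNA processing and let-7 turnover (left) and the 21 measured let-7 targets (right); filled points passed. Most processing genes lie right of 0, up to 1.95 for Drosha, whereas the targets spread from −7.93 for Thbs1 to a fitted 7.47 for Mycn, whose MEF values lie below background. Without scaling, fewer processing genes lie right of 0 with a passing test: 9, 12, 8 and 7 in the 4 lines.

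The mRNAs known to be bound by IGF2BP proteins moved both ways. Of 10 listed, 8 were measured, with 2 higher in each line against MEF and 4, 4, 4 and 5 lower. Of all probe sets, 22.1%, 23.3%, 21.8% and 23.5% were higher and 21.3%, 18.7%, 23.9% and 20.3% lower. The median changes of the 8 mRNAs were −0.25, −0.34, −0.19 and −0.99. Without scaling 1, 2, 1 and 1 were higher and 5, 4, 6 and 6 lower, and under median scaling 2, 2, 3 and 2 were higher and 3, 4, 3 and 5 lower. Igf2, the growth factor whose mRNA gave the family its name, changed by −4.60, −4.41, −4.64 and −4.68 (standard error 0.13). For Cd44, which encodes a cell surface receptor, CL11 and IP14D-101 were at least 154-fold lower, and the changes were −5.48 in IP14D-1 and −7.07 in IP20D-3. For Ptgs2, which encodes the inducible cyclooxygenase, the same lines were at least 96.9-fold lower, and the changes were −3.81 and −6.27. Mapk4, a kinase gene, was at least 4.20-fold higher in CL11 and 4.05, 3.87 and 5.73-fold in the iPS lines.

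Cd44 and Ptgs2, like Hmga2, were higher in IP14D-1 and IP20D-3 than in CL11. Cd44 was at least 3.43-fold higher in IP14D-1 than in CL11 and at least 1.14-fold higher in IP20D-3 than in CL11. Ptgs2 was at least 6.91-fold and 1.26-fold higher in these comparisons, and its difference in IP20D-3 did not pass without scaling or under median scaling (adjusted p = 0.0562 and 0.0604). Myc and Fscn1, an actin bundling protein gene, were lower in IP20D-3 than in CL11 (−0.98 and −0.51, adjusted p = 0.000806 and 0.000317).

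Other RNA-binding protein genes of embryonic and germ cells were counted last. Of 19 listed, 16 were measured, and 10, 12, 11 and 11 rose and 3, 3, 2 and 3 fell against MEF, with medians of 1.30, 1.25, 1.43 and 1.30. With 6 genes at their bound the medians were 0.79, 1.11, 1.07 and 1.30. Of all probe sets, 22.1%, 23.3%, 21.8% and 23.5% rose and 21.3%, 18.7%, 23.9% and 20.3% fell. Without scaling 9, 11, 9 and 8 of the listed genes rose and 6, 3, 5 and 5 fell. Esrp1, an epithelial splicing regulator, was at least 9.33-fold higher in CL11 and 25.8, 15.7 and 29.3-fold in the iPS lines. The germ cell genes Ddx4, a helicase, and Dazl were at least 12.6-fold and 5.83-fold higher in CL11. In the iPS lines the bounds were 11.3, 10.4 and 7.05-fold for Ddx4 and 4.31, 3.40 and 5.38-fold for Dazl. Elavl2, a neuronal and germ cell RNA-binding protein gene, rose by 3.38, 3.98, 4.47 and 4.22 (standard error 0.16) and was higher than in CL11 in all 3 iPS lines, by 0.60, 1.09 and 0.84 (adjusted p = 0.0132, 0.000253 and 0.00115). Under median scaling its difference between IP14D-1 and CL11 did not pass (0.35, adjusted p = 0.091).

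As a description, the genes most like each member were found by Pearson correlation of log2 signal among 12536 genes. Over the 15 arrays, which share the wide step between MEF and the other groups, these were Tnk1, Rasip1 and Tfap2c for Lin28a (r of 0.996, 0.995 and 0.995), Gsta4, Hspa14 and Fam169a for L1td1 (0.999, 0.996 and 0.996), Pou5f1, Amph and Bex4 for Trim71 (0.995, 0.994 and 0.994) and Cdca5, Sall4 and Klf5 for Igf2bp1 (0.998 each). For Hmga2 they were Pik3c2a, Ctse and Rasa1 (0.986, 0.984 and 0.984), for Igf2bp3 Tkt, Tex2 and Klf16 (0.946, 0.937 and 0.936) and for Lin28b Paqr9, Scube3 and Wbp2nl (0.949, 0.945 and 0.934). Over the 12 ES and iPS arrays, the closest to Hmga2 were Arrdc3, Gsdme and Zfp493 (0.983, 0.977 and 0.974). There the closest to Igf2bp3 were Igsf3, Shkbp1 and Nrm (0.967, 0.964 and 0.962), and those to Lin28a were Pdcd2, Bcat1 and Atp6v0d1 (0.958, 0.946 and 0.943). The closest to Lin28b were Taf4, Rassf6 and Mospd2 (0.965, 0.964 and 0.960). L1td1 had Rsl1d1 at 0.932, and Trim71 and Igf2bp1 had no gene above 0.868. Arrays of one line are not independent points, and the best of many genes is always high.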

How the data were processed

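RNA from 15 samples had been read on Affymetrix arrays, with 1 array per sample. The deposited values are signal intensity per probe set on a linear scale, for which the submitters' processing notes name MAS5 and Affymetrix Expression Console, and the genome build is not given in the sources used here. Probe sets were named from the platform annotation: 34945 named 1 gene, 932 several and 9160 none, and 64 controls were left out. The 2% trimmed means of the arrays ranged from 11141.8 to 20355.5, and arrays were brought to the mean of these. Values became log2(signal + 16), which understates changes of dim genes, and limma 3.58.1 in R 4.3.3 fitted group means on all 15 arrays with a variance trend. P-values were adjusted over 45037 probe sets.

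Where the dimmer group's mean lay below background, its arrays were raised to background and the change was given as "at least N-fold", and no fold was given where both groups lay below. No arrays held identical values, and arrays of a group correlated at 0.916 to 0.942. The number of arrays limits the precision, and 63.95% of values lay above background. The members and gene lists were chosen with earlier results of these data known. The rule for naming took from each list up to 4 genes for the comparisons against MEF and up to 4 for those between lines. These had the largest change in any comparison of that kind, among changes that passed and were not below background in both groups. For each member the 3 genes with the highest correlation were taken. The scripts were tested on simulated data. Alternatives were other pseudocounts, scalings, filters, fits and left-out replicates.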

Additional observations from a re-analysis of the deposited data

Results flagged for a closer look

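The change of Hmga2 against MEF differed between lines (limma, adjusted over all probe sets). With MEF common to both changes, this is the difference between lines already given and no further test. On the log2 scale IP14D-1 minus CL11 was 1.22, IP20D-3 minus CL11 was 0.78, IP14D-101 minus IP14D-1 was −1.70 and IP20D-3 minus IP14D-101 was 1.25. The call for IP20D-3 minus CL11 was lost without scaling and without the variance trend, among other settings. The change of Igf2bp3 against MEF differed likewise, with −0.61 for IP14D-1 minus CL11, 0.58 for IP14D-101 minus IP14D-1 and 0.61 for IP20D-3 minus IP14D-1, and none of these 3 passed without scaling. Each difference rests on 3 arrays of each of the lines compared, since the MEF arrays are common to both changes.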

How the results depend on the processing

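Of 448 values of the 28 member changes against MEF under other settings, 435 kept their direction and side of the threshold, 4 lost the call, 7 gained one and 2 turned sign. The 43 differences between lines taken here passed at any probe set of a member, or at its highest in the fit on 12 arrays. Of their 700 values, 603 kept both, 80 lost the call, 11 gained one and 6 turned sign, none of them past the threshold. The other 129 changes of member probe sets had 2042 values. Of these, 1863 kept both, 21 lost the call, 52 gained one and 106 turned sign, 3 of them past the threshold. The count of members that passed was 4 in place of 2 for IP14D-1 against CL11, both in a fit on those arrays alone and in the fit on 12 arrays. For IP20D-3 against CL11 it was 3 with a pseudocount of 1000, 0 without scaling, 0 without the variance trend, 2 in a fit on those arrays alone and 3 in the fit on 12 arrays, in place of 1. Left-out replicates gave 0 to 1 there and 0 to 1 for IP14D-101 against CL11. IP20D-3 against IP14D-1 had 3 without scaling, and IP20D-3 against IP14D-101 had 2 in the fit on 12 arrays, in place of 1 each. The causes were not tested.

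Among the 28 changes and 43 differences, signs turned for Igf2bp3 in IP14D-1 against MEF. They did so without scaling (−0.063) and without IP14D-1 replicate 2, where left-out replicates gave −0.008 to 0.072. Without scaling they also turned for Igf2bp3 in IP14D-101 against IP14D-1 at 1433731_at (−0.073), 1453957_a_at (−0.010) and 1450687_at (−0.030), and in IP20D-3 against IP14D-1 at 1422611_s_at (−0.085) and 1450687_at (−0.040). Under median scaling Igf2bp1 at 1455223_at turned in IP14D-101 against IP14D-1 (0.126). Lin28b in CL11 passed with the replicate number as a block (2.09, adjusted p = 0.0353, 7 members in place of 6), under median scaling (2.27, adjusted p = 0.0306), under quantile normalization (adjusted p = 0.0387), with the background filter (adjusted p = 0.0351), with 1 probe set per gene (adjusted p = 0.0392), and without MEF replicate 1 (2.93, adjusted p = 0.00891) or 2 (2.62, adjusted p = 0.0283). The numbers do not pair the samples: over 30 pairs with the same number, deviations correlated at −0.042 to 0.038. The block changed no other count of members.

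Scaling moved the split of all calls. The share of calls that were higher was 51%, 55.6%, 47.8% and 53.7% in the 4 lines against MEF, 33%, 51.4%, 25.8% and 27.7% without scaling, and 60.2%, 54.8%, 61.3% and 57.6% under median scaling. Against CL11 it was 54.8%, 46.2% and 52.6% in IP14D-1, IP14D-101 and IP20D-3, 91%, 16.3% and 21.3% without scaling, and 26.4%, 63.8% and 34.9% under median scaling. Against IP14D-1 it was 40.6% in IP14D-101 and 50% in IP20D-3, 4.2% and 0.863% without scaling, and 74% and 67.9% under median scaling. For IP20D-3 against IP14D-101 it was 57.8%, 48.2% and 29.2%. Without scaling the median of all probe sets was −0.46, 0.02, −0.69 and −0.59 against MEF.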
